A study of Mus musculus with 6 samples.

Results

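The immediate early genes described here were 10 genes that cells switch on without first making new protein, leaving aside the FOS and JUN genes that encode AP-1. They were chosen by name, as Egr1, Egr2 and Egr3, Nr4a1, Nr4a2 and Nr4a3, Ier2, Ier3, Btg2 and Zfp36. All 10 were among the 55335 genes of the count table, and all 10 were among the 16612 genes that passed the filter on low counts. Whole aorta was sequenced from C57BL/6 mice of 2 ages, which the labels give as strain c57b6l and genotype WT. The young group was 3 libraries from mice of 6 weeks and the aged group was 3 libraries from mice of 6 months. The study's methods give the mice as male and as killed by cervical dislocation under xylazine anaesthesia. Age was the only labelled difference between the groups. Fat around the vessel was taken off under a microscope and the vessels were frozen in liquid nitrogen. How long dissection took and the time of day are not given in the sources used here.

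Immediate early genes are held ready for transcription and respond within minutes to growth factors, stretch, stress hormones and injury, including the handling of a tissue as it is removed. Serum response factor with its ETS partners acts on the EGR genes, and CREB acts on the NR4A genes through cyclic AMP response elements. Their RNAs are short-lived, in part because proteins such as ZFP36 and BTG2 hand RNAs to the CCR4-NOT deadenylase. In the vessel wall, EGR1 and the NR4A receptors are known for roles in smooth muscle growth and inflammation.

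At 6 months, none of the 10 genes differed from 6 weeks after correction over all genes. Nr4a3 had the largest difference of the 10, with a higher level in every aged library than in any young one. Nr4a1, of the same receptor family, had a lower mean level in aged aorta, and Egr1 measured 405.8 and 410.2 counts-per-million (CPM) in 2 young libraries and 216.0 CPM or less in the other 4. The groups overlapped for all of the 10 but Nr4a3, and for Egr2, Egr3, Ier2 and Zfp36 the sign of the difference turned with the scaling, the fit or the libraries kept. The edgeR quasi-likelihood test called 0 of 16612 genes, or 0%, at an adjusted p under 0.05, with a lowest adjusted p of 0.189. An unadjusted p under 0.05 was reached by 1723 genes, or 10.4%, and by 2 of the 10. These were Nr4a3, higher in aged aorta, and Nr4a1, lower. Of all genes tested, such a p went with a higher level for 5.56% and with a lower level for 4.82%. DESeq2 called 338 genes, or 2.03%, and again 0 of the 10. Without aged replicate 2 the edgeR test called 110 genes, or 0.642%, and 0 of the 10.

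Total counts per library lay between 31049632 and 45832185, and the lowest count of any of the 10 genes in a library was 54. CPM here are after TMM scaling, which corrects for differences in RNA makeup. The 8 smooth muscle markers, led by Acta2 and Myh11, summed to between 33410 and 41710 CPM in young and between 28970 and 34280 CPM in aged aorta. Young replicate 1 had 305.6 CPM of Xist against 0.204 to 0.636 CPM elsewhere, although all mice are given as male. It also had 49.9 CPM of the clock gene Arntl against 0.747 to 8.14 CPM, and 368 CPM of cardiac markers against 83.2 to 99.3 CPM. Of these, Tnnt2 measured 101.8 CPM and Myh6 79.7 CPM there, while Ryr2, with Tnnt2 the most abundant over all libraries, measured 32.8 CPM against 25.6 to 48.6 CPM elsewhere. Aged replicate 2 had 4471 CPM of adipocyte markers against 982.2 to 2248 CPM, with 1518 CPM of Fabp4, 1422 CPM of the brown fat gene Ucp1 (45.2 to 360.6 CPM elsewhere) and 900.8 CPM of Plin4. Aged replicate 3 had 1861 CPM of endothelial markers, led by Pecam1 and Vwf, against 390.5 to 524.6 CPM. Young replicate 2 had 81.9 CPM of Schwann cell markers against 199.2 to 240.2 CPM, with Pmp22 at 56.4 against 147.1 to 197.5 CPM and Prx at 1.55 against 8.24 to 23.6 CPM. The macrophage markers, led by Lyz2 and C1qa, summed to between 89.4 and 116.4 CPM in young and between 126.6 and 386.2 CPM in aged aorta, and DESeq2 called 4 of 8 higher. Those of fibroblasts, led by Col1a1 and Dcn, summed to between 1999 and 3100 CPM and between 1884 and 7438 CPM, and DESeq2 called 3 of 8 higher. Markers of neutrophils (S100a9 and Csf3r) and skeletal muscle (Ckm and Tnnt3) summed to at most 5.59 and 24.3 CPM, with Mmp8 and Ly6g at 0 in every library. Their part in the differences below was not tested, and in whole tissue fewer cells of a type and less RNA per cell cannot be told apart. Mitochondrial genes took 14.9% to 21.2% of counts in young and 23.1% to 30.4% in aged libraries.

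Promoter sequences are shown for the genes in which the letters TGACG, one side of a cyclic AMP response element, stood out. RefSeq promoters (GRCm38.p6, 250 bases before to 50 after each start) were matched for 7 of the 10 genes, Egr2, Ier3, Nr4a1, Nr4a2, Nr4a3, Btg2 and Zfp36. On either strand, TGACG occurred 4 times in each of the 3 NR4A promoters and 2 times in those of Egr2 and Btg2. Of all 27025 promoters, 21% held at least 1 and 0.252% held at least 4. The sites of Btg2 were both strands of the full palindrome TGACGTCA, which 1.88% of promoters held. The stretches below lie before the RefSeq start and outside annotated exons. They are at chr15:101266596-101266845 on the plus strand for Nr4a1 and chr2:57124004-57124253 on the minus strand for Nr4a2. Those of Nr4a3 and Btg2 are at chr4:48045055-48045152 on the plus strand and chr1:134079156-134079405 on the minus strand. The Nr4a1 stretch lies inside the gene span given below, before a RefSeq start at position 101266846. Capitals mark TGACG, or CGTCA where it is on the other strand, and for Nr4a3 the stretch holds 3 of its 4 sites.
Nr4a1: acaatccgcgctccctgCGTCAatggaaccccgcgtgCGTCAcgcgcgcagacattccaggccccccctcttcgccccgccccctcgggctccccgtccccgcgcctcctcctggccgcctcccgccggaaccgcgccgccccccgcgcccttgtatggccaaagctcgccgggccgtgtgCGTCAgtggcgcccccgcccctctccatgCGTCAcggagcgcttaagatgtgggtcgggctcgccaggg
Nr4a2: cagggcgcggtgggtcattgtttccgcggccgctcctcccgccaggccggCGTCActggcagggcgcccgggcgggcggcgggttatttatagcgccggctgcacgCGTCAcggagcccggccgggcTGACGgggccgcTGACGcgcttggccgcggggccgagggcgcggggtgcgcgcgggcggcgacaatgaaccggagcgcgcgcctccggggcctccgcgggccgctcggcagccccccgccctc
Nr4a3: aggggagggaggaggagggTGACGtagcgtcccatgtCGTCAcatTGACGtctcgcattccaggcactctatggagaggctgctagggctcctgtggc
Btg2: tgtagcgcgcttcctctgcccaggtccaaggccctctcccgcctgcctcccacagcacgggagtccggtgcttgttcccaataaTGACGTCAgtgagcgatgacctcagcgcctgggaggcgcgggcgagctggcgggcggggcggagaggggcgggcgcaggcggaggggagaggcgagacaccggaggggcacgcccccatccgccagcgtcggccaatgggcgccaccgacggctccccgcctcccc

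A CArG box, the site of serum response factor, was found in the promoters of Egr2 and Zfp36 and in 1.57% of all promoters. The EGR site GCGGGGGCG was found in those of Nr4a1 and Zfp36 (2.92% of all), and GCGTGGGCG in none of the 7 (0.625%). TATAAA was found in that of Nr4a2 (14.2%), and the ETS core GGAA in all 7 (95.9%). All motifs were searched on both strands, and a match is a run of letters, not evidence of binding. The 10 genes were also compact, with a median span of 5287 bases and 2 exons against 24228 bases and 9 exons for 13937 protein-coding genes tested (GENCODE M21). The NR4A genes had 8 exons each and were the longest of the 10, while Ier2 had 1 exon.

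Levels between genes were compared as FPKM, which divide by gene length. Nr4a1 had the highest median over the 6 libraries, at 69.2 FPKM (39.2 to 110.9), and Btg2 followed at 58.7 FPKM (42.3 to 75.8). Egr1 stood at 39.2 FPKM, Zfp36 at 34.9 FPKM, Ier2 at 33.3 FPKM and Ier3 at 14.0 FPKM. The low end held Nr4a2 at 6.02 FPKM, Nr4a3 at 2.95 FPKM, Egr3 at 1.17 FPKM and Egr2 at 0.768 FPKM. The ranges of every pair of neighbours in this order overlapped. Within libraries, however, Egr1 stood above Zfp36, Ier2 above Ier3, Ier3 above Nr4a2 and Nr4a2 above Nr4a3 in 6 of 6 libraries, while Nr4a1 stood above Btg2 in 4 of 6. Btg2 stood above Egr1 in 4 of 6, and Zfp36 above Ier2, Nr4a3 above Egr3 and Egr3 above Egr2 each in 5 of 6. Together the 10 genes took between 0.0689% and 0.149% of counts.

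**Figure D1:**
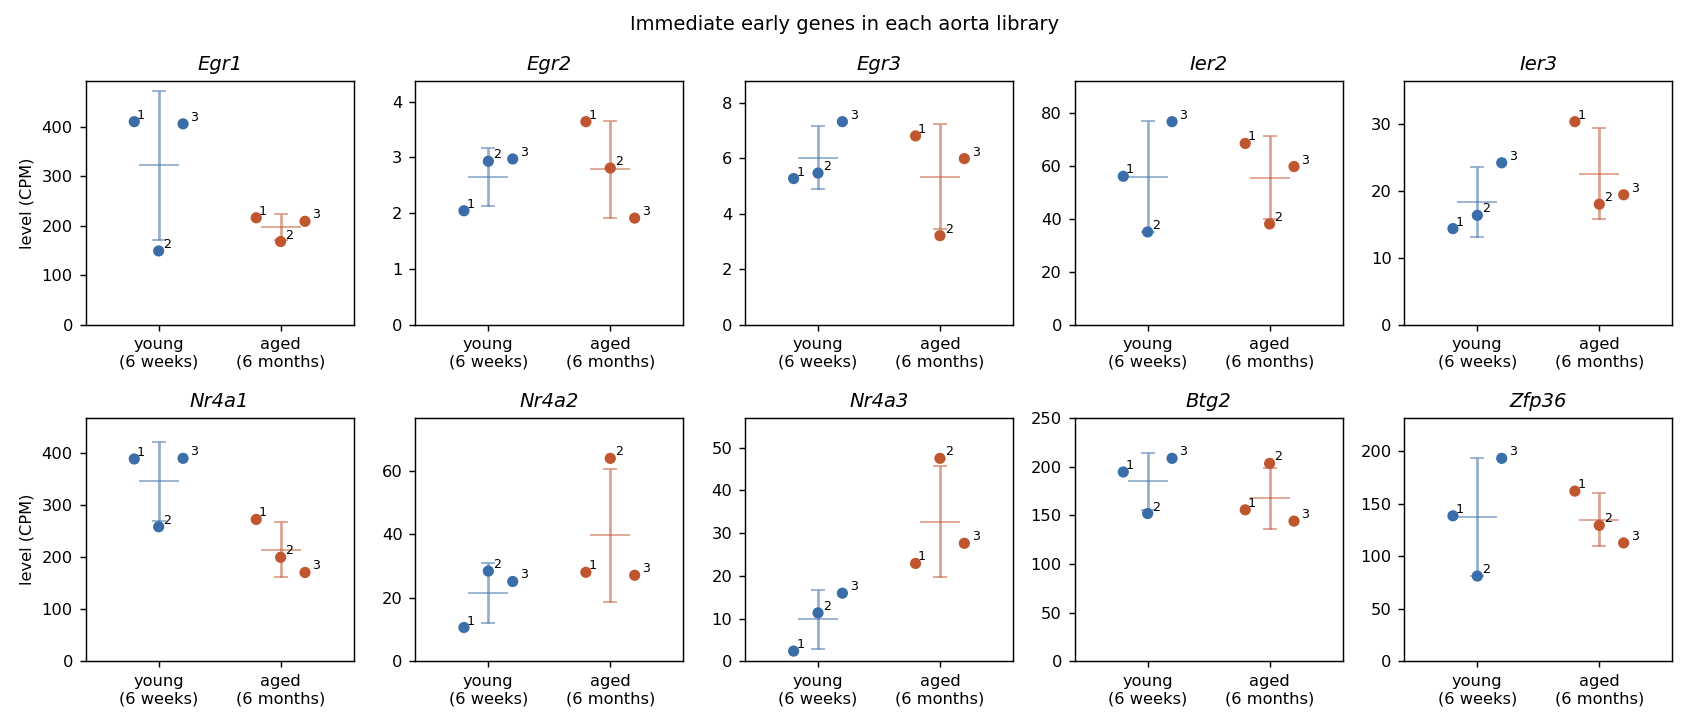
Level of each of the 10 genes in CPM after TMM scaling, a panel for each gene with its own axis from 0, for the young and aged libraries. Numbered points are libraries, and lines give the group mean and SD (n = 3). Nr4a3 is the gene whose aged points, from 22.9 to 47.5 CPM, all lie above its young points, from 2.42 to 16.0 CPM.

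The EGR genes encode zinc finger transcription factors that bind GC-rich sites. Egr1 measured 410.2, 149.0 and 405.8 CPM in young replicates 1, 2 and 3 and 216.0, 168.0 and 208.9 CPM in aged replicates 1, 2 and 3. Young replicates 1 and 3 stood above all others, while young replicate 2, the library with the lowest Pmp22 and Prx, was the lowest of the 6, so the groups overlapped. The means were 321.7 ± 149.6 CPM in young and 197.6 ± 26.0 CPM in aged aorta (SD, n = 3). The log2 difference, aged over young, was -0.70 (SE 0.37, edgeR adjusted p = 0.549). Without young replicate 1 the log2 difference was -0.48, and without young replicate 2 it was -1.04.

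Egr2, known for its part in myelinating Schwann cells and in T cells, was the lowest of the 10, with counts from 54 to 121. It lies at chr10:67535475-67542188 on the plus strand (GRCm38, as all gene positions here). Its levels were 2.04, 2.93 and 2.97 CPM in young and 3.64, 2.81 and 1.91 CPM in aged libraries. The aged values spanned the young ones, with a log2 difference of 0.08 (SE 0.36, edgeR adjusted p = 0.952). Egr3, which works with Egr1 and Egr2 in lymphocytes and in muscle spindles, measured 5.26, 5.46 and 7.31 CPM in young and 6.80, 3.21 and 5.98 CPM in aged libraries. The aged replicate 2 value was the lowest and the others overlapped, with a log2 difference of -0.17 (SE 0.33, edgeR adjusted p = 0.869). Egr1 made up between 94.1% and 98.1% of the EGR family's summed FPKM in every library.

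The NR4A genes encode nuclear receptors whose activity is set mainly by how much of them is made. Nr4a1, or Nur77 (chr15:101254269-101274795, plus strand), measured 388.5, 258.4 and 389.7 CPM in young and 272.5, 199.8 and 170.7 CPM in aged libraries. The groups overlapped through 1 pair, since aged replicate 1 lay above young replicate 2. The means were 345.5 ± 75.5 and 214.3 ± 52.5 CPM (SD, n = 3). The log2 difference was -0.69 (SE 0.25, edgeR unadjusted p = 0.0256, adjusted p = 0.428), with adjusted p from 0.196 to 0.842 over the alternative settings. On library totals alone and on FPKM every aged library lay below every young one, as it did for 22.2% and 20.9% of all genes, scales on which the median of all genes was itself shifted by -0.22 on totals and by -0.12 on FPKM with a pseudocount of 1.

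Nr4a2, or Nurr1 (chr2:57106830-57124003, minus strand), measured 10.7, 28.4 and 25.2 CPM in young and 28.0, 63.9 and 27.1 CPM in aged libraries. Young replicate 1 was well below the rest and aged replicate 2 well above, with the other 4 between 25.2 and 28.4 CPM. The log2 difference of 0.89 (SE 0.46, edgeR adjusted p = 0.543) was 0.58 without young replicate 1, 0.37 without aged replicate 2 and 0.05 without both.

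Nr4a3, or NOR1 (chr4:48045153-48086447, plus strand), is a receptor known from smooth muscle cell growth after vessel injury. It measured 2.42, 11.4 and 16.0 CPM in young and 22.9, 47.5 and 27.6 CPM in aged libraries. The groups did not overlap, and the lowest value was again in young replicate 1 and the highest in aged replicate 2. Means were 9.91 ± 6.89 and 32.7 ± 13.1 CPM (SD, n = 3). The log2 difference of 1.73 (SE 0.63) had an edgeR p of 0.0278 and an adjusted p of 0.436, and DESeq2 gave an adjusted p of 0.0863, the lowest of a range up to 0.765 over the settings. Groups that did not overlap were found for 16.5% of genes tested, with aged above young for 7.74%, so 1 of 10 was near that background. On FPKM the groups of Nr4a3 did not overlap either, with aged above young for 3.24% of genes. The log2 difference was 1.27 without young replicate 1, 1.36 without aged replicate 2 and 0.89 without both. The low young replicate 1 value is from the library with Xist, a high Arntl and a high cardiac sum, and the high aged replicate 2 value from that with the high adipocyte sum, and their part in the result was not tested.

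The balance within the NR4A family was computed after these levels were seen and has no test. By FPKM, Nr4a1 made up 97.3%, 89.2% and 92.6% of the family sum in young and 87.9%, 70.7% and 81.2% in aged libraries. Nr4a3 made up 0.352%, 2.29% and 2.21% in young and 4.32%, 9.83% and 7.69% in aged libraries. Both shares separated the groups without overlap, and a ratio within a library does not depend on its scaling. On FPKM, however, Nr4a1 was already lower and Nr4a3 higher in every aged library than in any young one. The Nr4a1 and Nr4a3 shares restate those values and add no support. The Nr4a2 share overlapped, from 2.3% to 8.5% in young and from 7.8% to 19.5% in aged libraries. How often other gene pairs separate was not computed. The ratio of Nr4a3 to Nr4a2, which leaves out Nr4a1, ran from 0.153 to 0.430 in young and from 0.503 to 0.693 in aged libraries. Nr4a1 remained the main NR4A RNA in all 6 libraries.

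**Figure D2:**
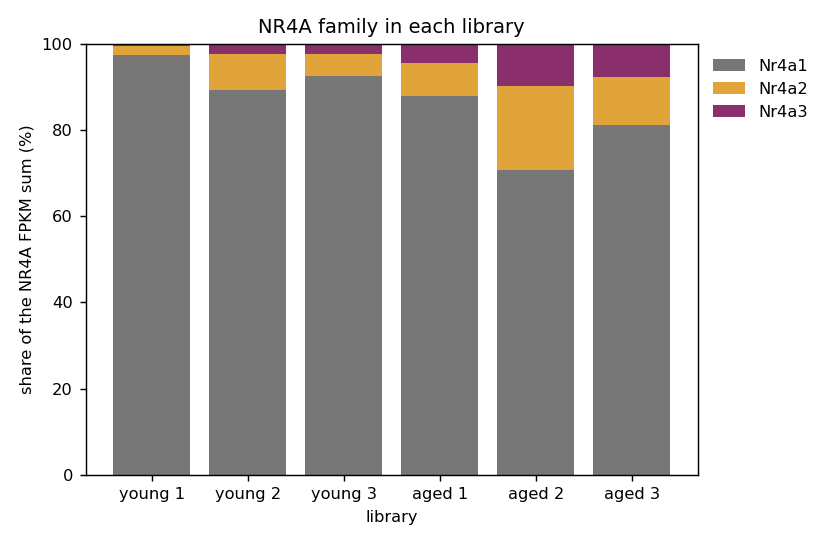
Share of the summed FPKM of the 3 NR4A genes held by each gene, in percent, in each of the 6 libraries. Nr4a1 holds 97.3% in young replicate 1 and 70.7% in aged replicate 2, and the Nr4a3 share is larger in each aged library than in any young one.

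Ier2 and Ier3 are small immediate early genes, Ier3 being known as a regulator of survival signalling. Ier2 (chr8:84661331-84662852, minus strand) measured 56.1, 35.1 and 76.8 CPM in young and 68.6, 38.1 and 59.8 CPM in aged libraries. In each age replicate 2 was the lowest, and the group means were 56.0 ± 20.9 and 55.5 ± 15.7 CPM (SD, n = 3). The log2 difference was -0.01 (SE 0.33, edgeR adjusted p = 0.992). Ier3 (chr17:35821684-35822923, plus strand) measured 14.4, 16.4 and 24.2 CPM in young and 30.4, 18.0 and 19.4 CPM in aged libraries. Aged replicate 1 was the highest, the other aged values lay among the young, and the log2 difference was 0.30 (SE 0.28, edgeR adjusted p = 0.717).

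Btg2 and Zfp36 encode regulators that act on other RNAs. Btg2, an antiproliferative factor that binds the CCR4-NOT deadenylase (chr1:134075170-134079120, minus strand), measured 194.6, 151.9 and 208.6 CPM in young and 155.7, 203.4 and 144.1 CPM in aged libraries. It was the steadiest of the 10, its highest value being 1.45 times its lowest, with a log2 difference of -0.14 (SE 0.20, edgeR adjusted p = 0.819). Zfp36, or tristetraprolin, binds AU-rich elements in inflammatory RNAs (chr7:28376784-28380253, minus strand). It measured 138.6, 81.2 and 193.3 CPM in young and 162.1, 129.5 and 112.8 CPM in aged libraries, the aged values lying within the young range, with a log2 difference of -0.03 (SE 0.32, edgeR adjusted p = 0.980). Gm44710 overlaps exons of Zfp36 on the other strand, with 71 to 271 counts against 2827 to 6716 for Zfp36, and the strand used in counting is not given in the sources used here.

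**Figure D3:**
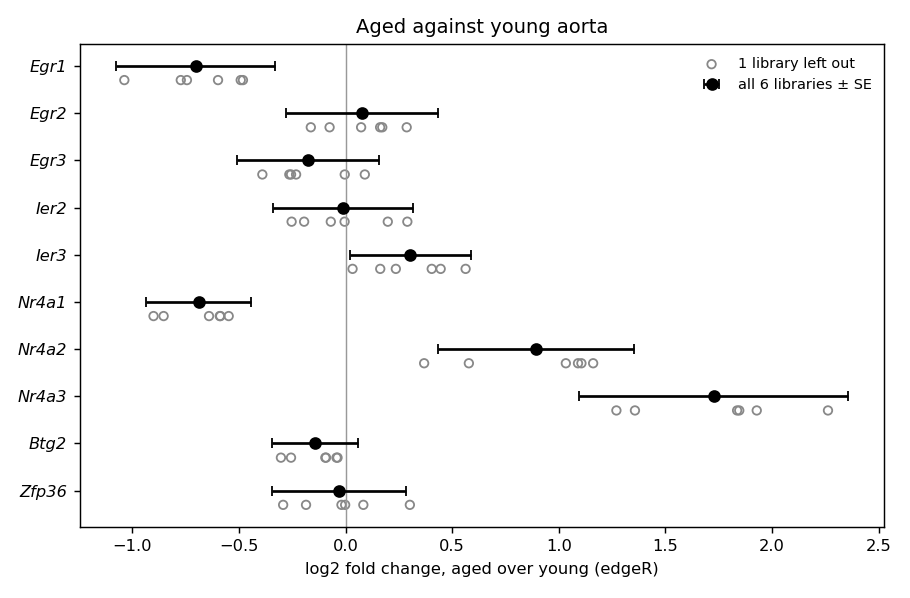
Log2 difference, aged over young, of each of the 10 genes in the edgeR fit on all 6 libraries with its standard error (filled points) and with 1 library left out (open points). Nr4a3 stands at 1.73 and Nr4a2 at 0.89, Egr1 at -0.70, Nr4a1 at -0.69, and the other 6 between -0.17 and 0.30.

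Across the 10 genes, 4 had a higher and 6 a lower level in aged aorta, with a median log2 difference of -0.02 against 0.02 for all genes tested. Libraries of 1 age had a median within-group SD of 0.46 on the log2 scale for these genes against 0.35 for all genes tested. In lists read below, it was 0.70 for AP-1 genes and 0.51 for further immediate early genes. For relatives of Btg2 and Zfp36 it was 0.54, and for MAP kinase phosphatases and related inhibitors 0.39. Of the 10 genes, Nr4a3 had the largest SD at 1.09 and Btg2 the smallest at 0.25. Young replicate 3 held the highest level of 5 of the 10 genes, Egr3, Ier2, Nr4a1, Btg2 and Zfp36. Young replicate 1 held the lowest level of Ier3, Nr4a2 and Nr4a3, and young replicate 2 that of Egr1, Ier2 and Zfp36. Aged replicate 3 held the lowest level of Egr2, Nr4a1 and Btg2, and aged replicate 2 that of Egr3. All genes tested were lowest in these 2 aged libraries for 15% and 18.2%. Of all genes tested, 19.3% were highest in young replicate 3, 15.9% were lowest in young replicate 2, 12.7% were lowest in young replicate 1, 17.7% were highest in aged replicate 2, and 2.24% were both, as Nr4a2 and Nr4a3 were.

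**Figure D4:**
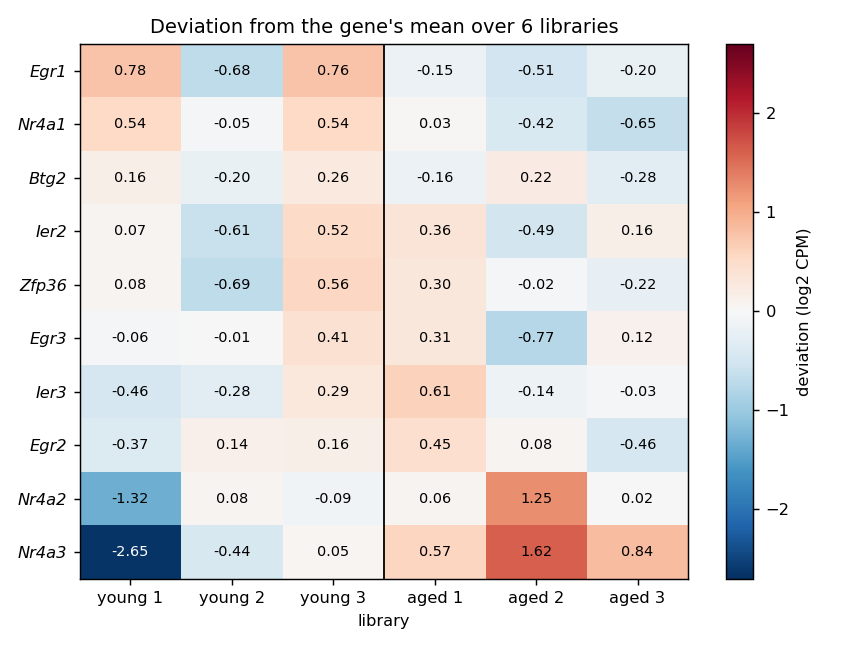
Deviation of each of the 10 genes from its own mean over the 6 libraries, in log2 CPM, as a map of genes by libraries. Nr4a3 in young replicate 1 has the lowest value, -2.65, and Nr4a3 in aged replicate 2 the highest, 1.62.

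The 10 genes did not share 1 pattern. Likeness was measured as the root mean square difference of log2 deviations over the 6 libraries, where 0 is the same pattern. Ier2 and Zfp36 were the most alike pair at 0.2504, followed by Egr2 and Ier3 at 0.278 and by Egr3 and Ier2 at 0.280. Egr1 was most like Nr4a1, at 0.354. Egr1 and Nr4a3 were the least alike at 1.75, and Nr4a2 and Nr4a3 differed by 0.720. From the mean pattern of the 10, Ier3 differed by 0.189 and Nr4a3 by 1.21. Of 10960 other genes with at least 5 CPM, the 8 nearest to that mean pattern were Incenp (0.0713), Tmem138, Mapkap1, Hivep3, 2310057M21Rik, Slc35b1, Stk26 and Maf (0.104), against a median of 0.360 over all candidates. For single genes, a measure added after seeing the values, Limch1 was the nearest to Egr1 (0.193) and Dusp1 among the next (0.196), against a median of 0.622. Fam46b was the nearest to Nr4a3 (0.542) and Per1 among the next (0.577), against a median of 1.38.

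**Figure D5:**
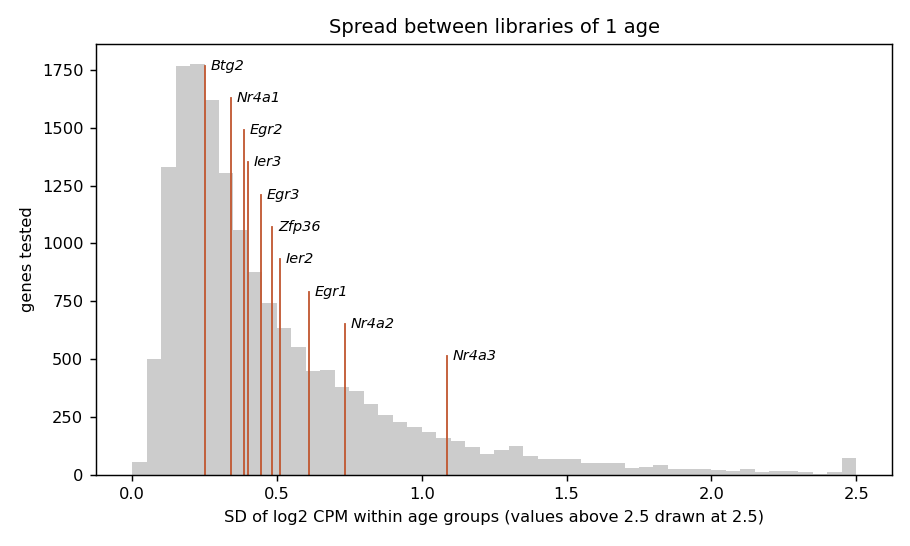
Within-group SD of log2 CPM for each of the 10 genes (vertical lines, named) over a histogram of the same SD in all 16612 genes tested, where values above 2.5 are drawn at 2.5. The median of the 10 is 0.46 and that of all genes is 0.35.

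The genes around these 10 were read from lists written from general knowledge, and the edgeR test called 0 genes of any list, so the counts below use an unadjusted p unless DESeq2 is named. Over all genes tested, 8654 had a higher and 7958 a lower level, p was under 0.05 for 5.56% higher and 4.82% lower, and DESeq2 called 1.33% higher and 0.704% lower. Of 16 regulators of the EGR and NR4A genes, 5 had a higher and 11 a lower level, with p under 0.05 for 1 higher and 3 lower. The 3 with the smallest p were Crtc3, a CREB coactivator, with a log2 difference of -0.84, Srf, serum response factor, with -0.75, and Crtc1 with -0.60. All 3 had every aged library below every young one, which held for 8.78% of genes. DESeq2 called Crtc3 (adjusted p = 0.0208) and Srf (0.0294) lower, while edgeR gave adjusted p of 0.372 for both. Of 13 MAP kinase phosphatases and related inhibitors tested, 6 had a higher and 7 a lower level, with p under 0.05 for 1 higher and 3 lower, and with Dusp5 at -0.89, Dusp10 at -0.94 and Spred1 at 0.39 on the log2 scale.

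Among the partners of Btg2 and Zfp36, 10 of 11 CCR4-NOT subunits had a lower level in aged aorta, with a median log2 difference of -0.28 and 3 with p under 0.05. Cnot7, a catalytic deadenylase, measured 26.6, 30.0 and 24.8 CPM in young and 14.8, 15.6 and 15.3 CPM in aged libraries. Its log2 difference was -0.83 (SE 0.15), with an edgeR adjusted p of 0.317 and a DESeq2 adjusted p of 0.00317. Cnot10 stood at -0.48 and the scaffold Cnot1 at -0.32, and DESeq2 called neither. Of 6 relatives of Btg2 and Zfp36 tested, 4 had a higher and 2 a lower level and 0 had p under 0.05, with Btg1 at -0.90, Zfp36l1 at -0.86 and Btg3 at 0.42. Of 15 transcripts known as Zfp36 targets, 9 were tested, 7 with a higher level and 3 with p under 0.05. The 7 include Ier3, itself 1 of the 10. Ptgs2, Plk3 and Myc are also counted among the further immediate early genes below. Ccnd1, cyclin D1, measured 8.61, 11.0 and 11.0 CPM in young and 49.3, 23.8 and 45.2 CPM in aged libraries, a log2 difference of 1.95 (edgeR adjusted p = 0.259, DESeq2 1.72e-06). Ptgs2 stood at 0.82 and Il1b, with 2 to 40 counts, at 2.30, and Csf2 had 0 counts in every library.

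Other stimulus-responsive genes were read in the same way. Of 24 further immediate early genes tested, 17 had a higher and 7 a lower level, with a median log2 difference of 0.34 and 6 with p under 0.05, all higher. Maff, a small MAF transcription factor, measured 12.9, 16.2 and 16.3 CPM in young and 32.8, 45.4 and 47.0 CPM in aged libraries, and Errfi1, an inhibitor of EGF receptor signalling, stood at a log2 difference of 1.72. DESeq2 called both higher (adjusted p = 2.76e-06 and 0.00224), while edgeR gave 0.208 and 0.372. Of 7 AP-1 genes tested, Junb had a log2 difference of 1.22, Atf3 of -1.79 and Jund of 0.14, with 3 higher and 4 lower. DESeq2 called Junb higher (adjusted p = 0.0131) and Atf3 lower (0.0176), and edgeR gave 0.377 for both. Of 11 glucocorticoid-responsive genes, 10 had a higher level, with a median of 1.72, and DESeq2 called 6 higher. Of these 11, Errfi1 and Sgk1 are also among the further immediate early genes, Dusp1 among the phosphatases and Per1 among the clock genes. Cebpd stood at 1.80, Errfi1 at the value above, and Fkbp5 measured 6.28, 16.4 and 14.7 CPM in young and 55.6, 176.9 and 88.9 CPM in aged libraries. Like Nr4a3, Fkbp5 was lowest in young replicate 1 and highest in aged replicate 2. The clock genes were read as a list of 5, which holds Clock, Npas2, Arntl and Cry1, and a list of 10 others. Of the 5, only Cry1 had a higher level (log2 difference 0.63), and p was under 0.05 for Clock alone (-1.08). Npas2 stood at -2.47. In young replicate 1, Npas2 measured 71.2 CPM against 2.12 to 9.97 CPM elsewhere, and Clock 60.0 against 14.3 to 36.8 CPM. Of the 10 others, 5 had a higher level, with Per1 at 0.74, Nr1d2 at 0.35 and Per3 at -0.42. These 10 summed to 230.4 CPM in young replicate 1 against 906.3 to 1660 CPM elsewhere. The part of this library in the clock differences was not tested.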

How the data were processed

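RNA of whole aorta from young (6 weeks) and aged (6 months) mice was sequenced single-ended, as 3 libraries per age. The authors deposited whole-number counts per gene and, separately, FPKM. The submitters' processing notes name mm10, and the aligner and the counting tool are not given in the sources used here. No sample column was left unused (0). Counts were analysed in R 4.3.3 with edgeR 4.0.16: filterByExpr (minimum count 10, minimum total 15), TMM, a quasi-likelihood fit without covariates, and Benjamini-Hochberg adjustment across the tested genes at a threshold of 0.05. The fit was tested on simulated data. Alternatives were DESeq2 1.42.0, limma 3.58.1 on log2(FPKM + 1) and log2(FPKM + 0.1), other scalings and filters, a replicate block, and leaving out libraries. Gene positions are from GENCODE M21 (GRCm38) and promoters from RefSeq (GRCm38.p6). Protein sequences were not analysed here. Levels between genes use FPKM, and the SD within groups uses log2 CPM with a prior count of 2.

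The 10 genes and all lists were chosen with earlier results of these data known. Named were the 10 genes, the 3 tested genes of each other list with the smallest edgeR p, the 2 most abundant of each cell type list (1 list is not reported here), the 8 genes nearest in pattern, and Xist and Arntl. Dusp1, Limch1 and Fam46b, named for their likeness to Egr1 or Nr4a3, were picked after their values were seen. So were Myh6, Ucp1, the genes given in full (Cnot7, Fkbp5, Ccnd1 and Maff), Csf2, Mmp8, Ly6g and Gm44710. Genes shared between lists are also named. The sample titles number 3 replicates per age, without saying whether each is 1 mouse. The p values set the difference between the groups against the spread between these libraries. A count carries at least its counting error.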

Additional observations from a re-analysis of the deposited data

How the results depend on the processing

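The edgeR fit called 0 genes under RLE size factors, library totals, no filter, at least 10 counts in every library, robust fitting and without mitochondrial genes, and limma on log2 FPKM called 0. DESeq2 called 338 genes (221 higher, 117 lower). Leaving out 1 library gave between 0 and 110 genes, the 110 being without aged replicate 2. None of the 10 genes was called in any of these 17 alternatives, and 154 of 170 values kept their direction. The signs that turned were those of Egr2 (-0.16 on library totals, -0.062 and -0.14 with limma at pseudocounts 1 and 0.1, -0.08 without young replicate 1 and aged replicate 2), Egr3 (0.006 without both), Ier2 (0.20 without both) and Zfp36 (0.005 without both). With 1 library left out, Egr2 ran from -0.16 to 0.29, Egr3 from -0.39 to 0.090, Ier2 from -0.25 to 0.29 and Zfp36 from -0.29 to 0.30. The cause was not tested.

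Same-numbered libraries had correlations of 0.079, 0.117 and 0.096 in their deviations from the group means, and the other pairs ran from -0.134 to 0.055. Same-numbered pairs were thus the highest, which leaves a pairing undecided. The sample titles state none, and the main fit used none. With the replicate block, 0 genes and 0 of the 10 were called, and the signs of Ier2 (0.016) and Zfp36 (0.044) turned. An unadjusted edgeR p under 0.05 was then reached by Nr4a1, Nr4a2 and Nr4a3, and by 1782 of 16612 genes. Egr2, with 54 to 121 counts per library, has the least depth of the 10.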
